A study of Homo sapiens with 6 samples.

Results

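The ATF4 amino acid response genes are 36 human genes, taken as a list of symbols out of 27852 gene symbols in the deposited table. The list was drawn up with earlier results of these data known, though its rule sets no threshold on a measured value. All 36 were in the table and all 36 passed the filter on low counts, among 13236 genes tested. The list holds 9 stress transcription factors and regulators, 5 growth and redox feedback effectors, 6 serine, glycine and one-carbon enzymes, 6 enzymes of asparagine, proline, alanine and transsulfuration metabolism, 8 amino acid transporters and 2 secreted stress proteins. RNA was measured in HSC3, HSC4 and SAS, established human oral cancer cell lines, each grown in HPLM and in DMEM. HPLM is human plasma-like medium, made to hold nutrients at levels near those of human plasma, and DMEM is a common culture medium with a different amino acid content. Both media carried heat-inactivated fetal bovine serum and an antibiotic-antimycotic mix, and no line carried a stated genetic change. Each medium had 3 libraries, 1 per line, so the line was the replicate and no line had a repeat within a medium. The time the cells spent in either medium is not given in the sources used here.

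ATF4 is a transcription factor of the integrated stress response. When amino acids run short, uncharged transfer RNAs activate the kinase GCN2, eIF2 alpha is phosphorylated, general translation slows and translation of the ATF4 message increases, so ATF4 mRNA is not a measure of ATF4 protein. ATF4, often paired with a C/EBP protein, then induces genes that make amino acids, carry them into the cell and charge transfer RNAs, together with feedback genes and, under lasting stress, genes linked to cell death.

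ATF4 and C/EBP partners are known to bind a composite element spelled TGATGNAA, whose reverse complement is TTNCATCA. Both strands of the RefSeq promoter windows (GRCh38.p14, 250 bases before to 50 after each start) were searched for these letters. Windows were given for 28 of the 36 genes, and 9 of the 28 (32.1%) held the element, against 4.46% of all 27305 genes with a window. By window, 9 of the 47 windows of the list held it, against 3.62% of all 35116 windows. A gene with more windows has more chances of a match, which the share by gene does not account for. The list was chosen as genes of the ATF4 response, so its share of an ATF4 element is a description and no independent test. The narrower form TGATGCAA (TTGCATCA on the other strand), which is contained in the first, was found in 5 of the 28 genes (17.9%), against 1.08% of all genes with a window. ALDH1L2, EIF4EBP1, GPT2, NUPR1, PSPH, PYCR1, SHMT2 and SLC7A11 had no window. The 9 matches are shown, since ATF4 is known to act through this element, each 5′ to 3′ on the strand of the gene, with the element in capitals.
ASNS: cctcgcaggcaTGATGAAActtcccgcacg
ATF3: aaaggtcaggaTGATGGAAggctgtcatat
CEBPG: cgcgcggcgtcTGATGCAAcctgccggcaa
CHAC1: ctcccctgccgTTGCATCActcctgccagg
JDP2: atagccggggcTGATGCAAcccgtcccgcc
SLC1A4: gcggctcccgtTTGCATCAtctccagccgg
SLC1A5: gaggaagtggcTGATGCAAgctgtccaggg
SLC3A2: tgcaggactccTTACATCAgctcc
SLC7A1: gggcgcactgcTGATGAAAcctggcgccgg

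In GRCh38.p14, the ASNS stretch lay on the minus strand at chr7:97872458-97872487, the ATF3 stretch on the plus strand at chr1:212565205-212565234 and the CEBPG stretch on the plus strand at chr19:33374060-33374089. The CHAC1 stretch lay on the plus strand at chr15:40953251-40953280, the JDP2 stretch on the plus strand at chr14:75427995-75428024 and the SLC1A4 stretch on the plus strand at chr2:64989381-64989410. The SLC1A5 stretch lay on the minus strand at chr19:46784893-46784922, the SLC3A2 stretch on the plus strand at chr11:62881725-62881748 and the SLC7A1 stretch on the minus strand at chr13:29595663-29595692. By GENCODE 29, on the same build, the elements of ASNS, CHAC1, SLC1A5, SLC3A2 and SLC7A1 fell in a non-coding part of an exon of at least 1 transcript of the gene. Those of CEBPG, JDP2 and SLC1A4 fell in an intron of a longer transcript, and that of ATF3 fell outside the annotated transcripts. A match in letters is a description and does not show that a factor binds there.

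Library totals lay between 17716006 and 20171713 expected counts, and TMM factors between 0.938 and 1.09. Levels are given as CPM, the expected count scaled to the size of the library, which here is corrected for transcript length, so levels of different genes can be set side by side. The summed level of 8 epithelial markers lay between 1649 and 4344 CPM in HPLM and between 2254 and 5299 CPM in DMEM. Sums of 7 fibroblast markers (3.39 to 6.52 CPM in HPLM, 2.05 to 6.13 CPM in DMEM) and of 4 endothelial markers (0.308 to 2.49 CPM in HPLM, 0.471 to 1.00 CPM in DMEM) were low. The 7 leukocyte markers summed to between 53.9 and 87.4 CPM in HPLM and between 45.0 and 77.2 CPM in DMEM, most of it CD68, a lysosomal protein also made by other cells.

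Between the media, no gene of the list passed the edgeR test over all lines. The edgeR quasi-likelihood test with the line as a block called 0 of the 36 genes at an adjusted p under 0.05 (0.00756% of all tested genes), limma-voom called 0, and DESeq2 called 2, SLC7A11 and SLC7A5, both lower in HPLM (0.348% of all genes). At an unadjusted edgeR p under 0.05, 1 gene, ATF3, was higher in HPLM (5.57% of all genes) and 4, SHMT2, SLC3A2, SLC7A11 and SLC7A5, were lower (4.55% of all genes). With the line as a block, these p-values rest on how far the difference between the media varied over the 3 lines, combined with the spread over all genes. The labels do not say that the libraries of a line came from separate cultures, so that variation may in part be technical. The median log2 fold change, HPLM over DMEM, was −0.12 over the 36 genes and 0.00 over all tested genes. In such bulk RNA, fewer cells of a type and less RNA per cell cannot be told apart.

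The 3 lines did not move alike. In HSC3, 33 of the 36 genes were lower in HPLM (49.5% of all genes), with a median log2 ratio of −0.71. In HSC4, 27 of the 36 were higher in HPLM (50.1% of all genes), with a median of 0.19, and in SAS 24 were higher (49.3% of all genes), also with a median of 0.19. Medians over all tested genes were within 0.01 of 0 in each line. Of the 36 genes, 20 were lower in HPLM in HSC3 and higher in it in both other lines (10.5% of all genes). The summed level of the 36 genes was 2689 CPM in HSC3 in HPLM, against 4213 CPM in DMEM. HSC4 had 2775 CPM in HPLM, against 2673 CPM in DMEM, and SAS had 3039 CPM in HPLM, against 3077 CPM in DMEM. Without both HSC3 libraries the median log2 fold change was 0.19, without HSC4 it was −0.29 and without SAS −0.27.

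**Figure D1:**
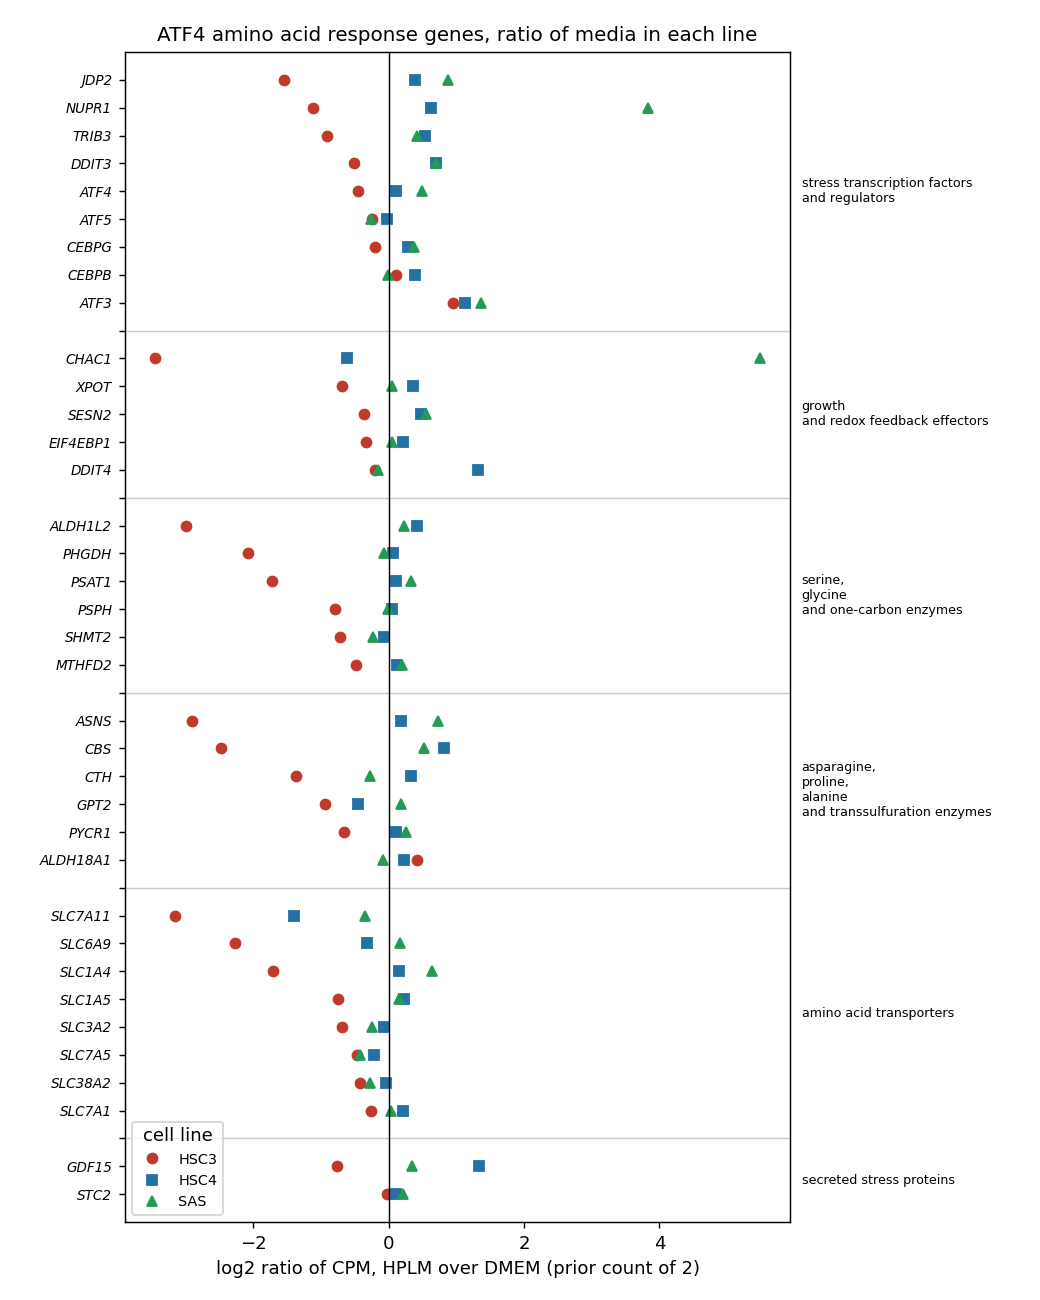
Log2 ratio of CPM, HPLM over DMEM, of each of the 36 genes in HSC3 (circles), HSC4 (squares) and SAS (triangles), grouped by role. Each point is 1 library over 1 library; 33 HSC3 points lie left of 0, while 27 HSC4 and 24 SAS points lie right of it.

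Past 2-fold, 12 genes were lower in HPLM in HSC3 (3.85% of all genes) and 0 were higher (3.13% of all genes). The 12 were ALDH1L2, ASNS, CBS, CHAC1, CTH, JDP2, NUPR1, PHGDH, PSAT1, SLC1A4, SLC6A9 and SLC7A11. In HSC4, SLC7A11 was lower past 2-fold (2.65% of all genes), and ATF3, DDIT4 and GDF15 were higher (3.32% of all genes). In SAS, 0 genes were lower past 2-fold (2.60% of all genes), and ATF3, CHAC1 and NUPR1 were higher (4.05% of all genes). Genes of 1 direction in all lines were few. ATF5, SHMT2, SLC38A2, SLC3A2, SLC7A11 and SLC7A5 were lower in HPLM in all 3 lines, 6 of 36 where 17.2% of all genes were, and ATF3 alone of the list was higher in all 3, where 16.9% of all genes were.

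Among the 9 transcription factors and regulators, ATF4 itself had 265 (HSC3), 215 (HSC4) and 367 (SAS) in HPLM, against 364 (HSC3), 199.7 (HSC4) and 261 (SAS) in DMEM, in CPM as in all such sentences here. The media therefore overlapped, with DMEM higher in HSC3 and HPLM higher in HSC4 and SAS. ATF4 averaged 282 ± 77.8 CPM in HPLM and 275 ± 83.1 CPM in DMEM (SD, n = 3 lines each), or 0.05 ± 0.18 as a log2 fold change (SE, edgeR adjusted p = 0.952). DDIT3, which encodes CHOP, a factor linked to cell death under lasting stress, had 24.5 (HSC3), 17.9 (HSC4) and 27.7 (SAS) in HPLM, against 34.9 (HSC3), 11.04 (HSC4) and 17.1 (SAS) in DMEM. TRIB3, a pseudokinase induced by ATF4 and CHOP that restrains ATF4, had 26.5 (HSC3), 40.5 (HSC4) and 39.5 (SAS) in HPLM, against 49.9 (HSC3), 27.9 (HSC4) and 29.6 (SAS) in DMEM. Both were lower in HPLM in HSC3 and higher in it in HSC4 and SAS, and neither passed (edgeR adjusted p = 0.759 for DDIT3 and 0.993 for TRIB3). The log2 fold change of TRIB3, 0.02 ± 0.29, turned to −0.03 without a scaling factor, and that of ATF4 to −0.0027.

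ATF3, a stress-induced repressor and activator of the same family, had 2.41 (HSC3), 5.73 (HSC4) and 5.41 (SAS) in HPLM, against 1.20 (HSC3), 2.58 (HSC4) and 2.05 (SAS) in DMEM. It was higher in HPLM in each line, at ratios of 0.94 (HSC3), 1.12 (HSC4) and 1.36 (SAS) on the log2 scale, although the media overlapped across lines. Its log2 fold change was 1.19 ± 0.26 (SE, edgeR adjusted p = 0.362), between 1.08 and 1.27 under the other settings. JDP2, a repressor that dimerises with AP-1 and ATF proteins, had 9.95 (HSC3), 5.78 (HSC4) and 1.27 (SAS) in HPLM, against 29.4 (HSC3), 4.40 (HSC4) and 0.646 (SAS) in DMEM. Its HSC3 levels stood above those of the other lines in both media, and only in HSC3 was HPLM the lower medium.

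ATF5, a relative of ATF4 that is also controlled in translation, had 19.2 (HSC3), 31.2 (HSC4) and 16.1 (SAS) in HPLM, against 22.9 (HSC3), 31.96 (HSC4) and 19.3 (SAS) in DMEM. CEBPB, a C/EBP partner of ATF4, had 91.5 (HSC3), 103 (HSC4) and 46.7 (SAS) in HPLM, against 84.7 (HSC3), 78.9 (HSC4) and 46.9 (SAS) in DMEM. CEBPG, another such partner, had 19.2 (HSC3), 15.3 (HSC4) and 20.8 (SAS) in HPLM, against 22.1 (HSC3), 12.5 (HSC4) and 16.05 (SAS) in DMEM. The log2 ratios of these 3 genes lay within 0.39 of 0 in all lines. NUPR1, a small stress-induced chromatin protein, had 1.08 (HSC3), 0.648 (HSC4) and 1.38 (SAS) in HPLM, against 2.46 (HSC3), 0.382 (HSC4) and 0 (SAS) in DMEM, levels at which single libraries weigh heavily.

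**Figure D2:**
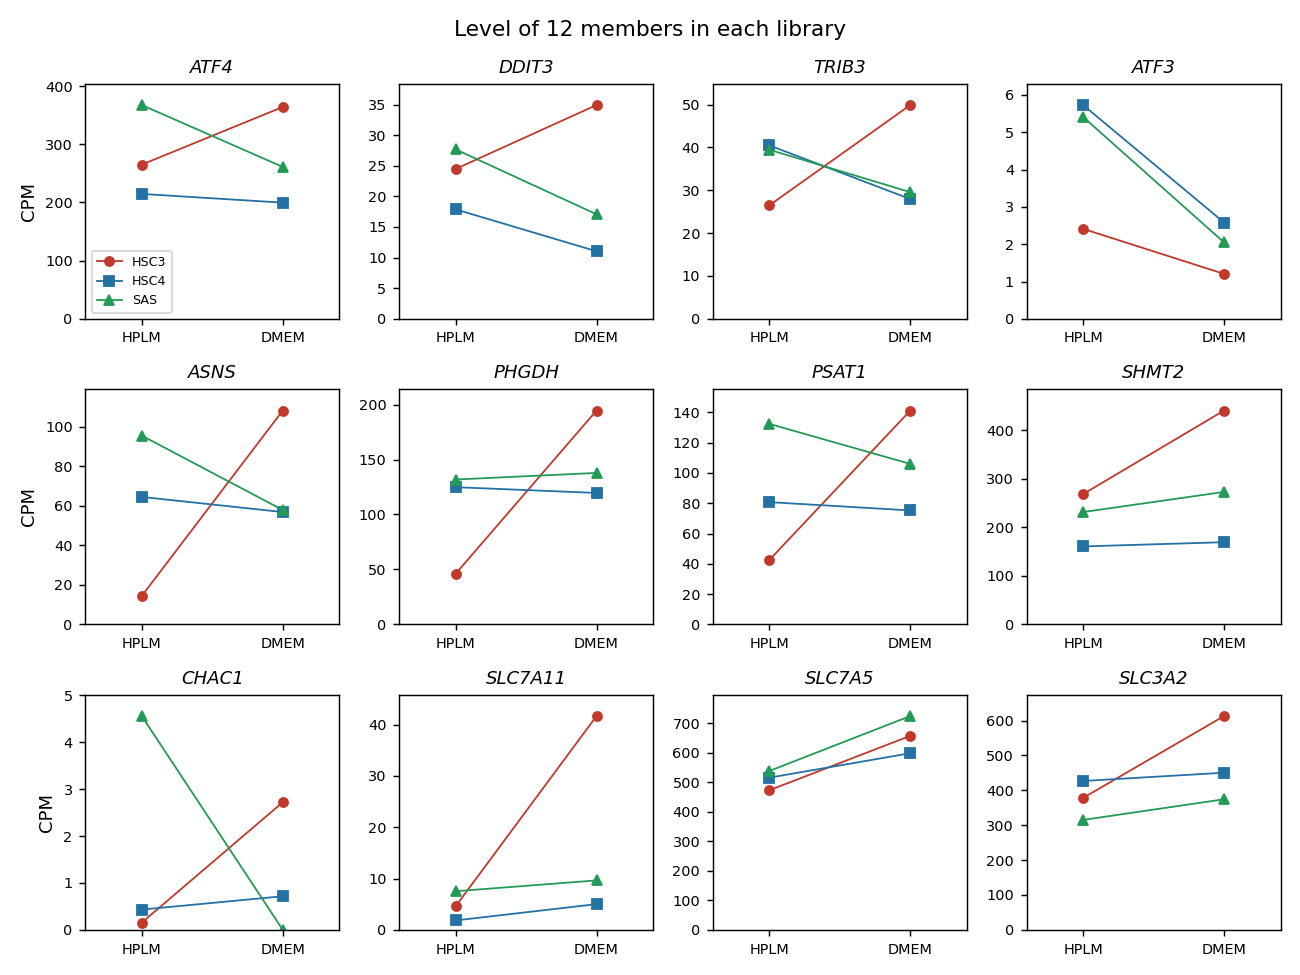
Level in CPM (y axis, from 0) of 12 of the 36 genes in HPLM (left) and DMEM (right), 1 line of the plot per cell line. ASNS, PHGDH and PSAT1 are lowest in HSC3 in HPLM and highest in HSC3 in DMEM, while SLC7A5 is lower in HPLM in all 3 lines.

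Of the 5 feedback effectors, DDIT4, which encodes REDD1, an inhibitor of mTORC1, had 135 (HSC3), 93.6 (HSC4) and 29.01 (SAS) in HPLM, against 156 (HSC3), 37.6 (HSC4) and 32.3 (SAS) in DMEM. Its log2 ratio was 1.31 in HSC4, −0.20 in HSC3 and −0.15 in SAS. SESN2, a leucine-binding sestrin that also restrains mTORC1, had 7.18 (HSC3), 4.70 (HSC4) and 5.73 (SAS) in HPLM, against 9.32 (HSC3), 3.34 (HSC4) and 3.88 (SAS) in DMEM. CHAC1, an enzyme that breaks down glutathione, had 0.154 (HSC3), 0.432 (HSC4) and 4.56 (SAS) in HPLM, against 2.72 (HSC3), 0.717 (HSC4) and 0 (SAS) in DMEM. CHAC1 was thus low in most libraries, opposite in direction between HSC3 and SAS, and listed at 0 in SAS in DMEM, and 1 transcript carried all of it in 4 of the 5 other libraries.

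EIF4EBP1, the translation repressor 4E-BP1, had 136 (HSC3), 128 (HSC4) and 172 (SAS) in HPLM, against 172 (HSC3), 111 (HSC4) and 166 (SAS) in DMEM. XPOT, the exporter of transfer RNAs from the nucleus, had 73.1 (HSC3), 52.96 (HSC4) and 56.004 (SAS) in HPLM, against 118 (HSC3), 41.3 (HSC4) and 54.1 (SAS) in DMEM. These 2 genes, like SESN2, were lower in HPLM in HSC3 and higher in the other lines, by less than 2-fold each. The lowest edgeR adjusted p among the 5 effectors was 0.773, that of DDIT4.

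The serine, glycine and one-carbon enzymes had the lowest median in HSC3 of the 6 groups, a log2 ratio of −1.26, against 0.08 in HSC4 and 0.09 in SAS. PHGDH, the first enzyme of serine synthesis, had 45.9 (HSC3), 125 (HSC4) and 132 (SAS) in HPLM, against 195 (HSC3), 119.6 (HSC4) and 138 (SAS) in DMEM. PSAT1, the second enzyme, had 42.5 (HSC3), 80.7 (HSC4) and 132 (SAS) in HPLM, against 141 (HSC3), 75.2 (HSC4) and 106 (SAS) in DMEM. For both genes the HSC3 libraries were the lowest of the 6 in HPLM and the highest in DMEM, with the HSC4 and SAS libraries between them.

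PSPH, the last enzyme of serine synthesis, had 38.8 (HSC3), 25.8 (HSC4) and 33.2 (SAS) in HPLM, against 67.1 (HSC3), 24.9 (HSC4) and 33.5 (SAS) in DMEM, and its pseudogene PSPHP1, which may share reads, stood between 4.10 and 13.8 CPM. SHMT2, which turns serine into glycine in mitochondria, had 269 (HSC3), 161 (HSC4) and 232 (SAS) in HPLM, against 441 (HSC3), 169.5 (HSC4) and 273 (SAS) in DMEM. It was lower in HPLM in each line, and the log2 fold change over lines was −0.34 ± 0.14 (SE, edgeR adjusted p = 0.487), while the media overlapped across lines. By GENCODE 29, the leading transcripts of PSPH and SHMT2 are of types other than protein-coding. They made up 34.1% to 44.3% of PSPH and 18.9% to 28.4% of SHMT2 in a library, so these levels are not all coding message. MTHFD2, a mitochondrial folate enzyme, had 75.002 (HSC3), 83.7 (HSC4) and 205 (SAS) in HPLM, against 105 (HSC3), 77.2 (HSC4) and 179 (SAS) in DMEM. ALDH1L2, a mitochondrial formyltetrahydrofolate dehydrogenase, had 0.462 (HSC3), 5.46 (HSC4) and 3.98 (SAS) in HPLM, against 4.40 (HSC3), 4.06 (HSC4) and 3.39 (SAS) in DMEM, so that HSC3 in HPLM stood below all 5 other libraries.

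ASNS, asparagine synthetase and a standard readout of the amino acid response, had 14.4 (HSC3), 64.5 (HSC4) and 95.6 (SAS) in HPLM, against 108 (HSC3), 56.9 (HSC4) and 57.9 (SAS) in DMEM. The lowest and the highest library were both HSC3, and HPLM over DMEM gave −2.90 (HSC3), 0.18 (HSC4) and 0.72 (SAS) on the log2 scale. ASNS averaged 58.2 ± 40.97 CPM in HPLM and 74.3 ± 29.4 CPM in DMEM (SD, n = 3 lines each), or −0.54 ± 0.70 as a log2 fold change (SE, edgeR adjusted p = 0.834), which became 0.45 without HSC3. PYCR1, which makes proline, had 22.8 (HSC3), 72.95 (HSC4) and 43.3 (SAS) in HPLM, against 36.2 (HSC3), 67.7 (HSC4) and 36.1 (SAS) in DMEM. ALDH18A1, the enzyme upstream of it, had 60.9 (HSC3), 66.8 (HSC4) and 79.8 (SAS) in HPLM, against 45.4 (HSC3), 57.1 (HSC4) and 84.7 (SAS) in DMEM, and was 1 of 3 genes of the list, with ATF3 and CEBPB, that were higher in HPLM in HSC3.

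GPT2, a mitochondrial alanine aminotransferase, had 10.5 (HSC3), 17.1 (HSC4) and 31.6 (SAS) in HPLM, against 20.2 (HSC3), 23.6 (HSC4) and 27.9 (SAS) in DMEM. CBS, the first enzyme of transsulfuration, had 1.74 (HSC3), 1.51 (HSC4) and 5.46 (SAS) in HPLM, against 10.2 (HSC3), 0.812 (HSC4) and 3.77 (SAS) in DMEM. The main CBS transcript made up 86.9% of the gene in HSC4 in DMEM and 0% of it in HPLM, so these values rest on different transcripts, and the near-identical gene CBSL reached at most 0.0539 CPM. CTH, the second enzyme of that pathway, had 2.72 (HSC3), 4.32 (HSC4) and 2.12 (SAS) in HPLM, against 7.17 (HSC3), 3.44 (HSC4) and 2.58 (SAS) in DMEM.

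Among the 8 amino acid transporters, 4 were lower in HPLM in all 3 lines: SLC7A11, SLC7A5, SLC3A2 and SLC38A2. SLC7A11, the cystine-glutamate exchanger xCT, had 4.57 (HSC3), 1.84 (HSC4) and 7.53 (SAS) in HPLM, against 41.7 (HSC3), 5.02 (HSC4) and 9.64 (SAS) in DMEM. HPLM over DMEM gave −3.16 (HSC3), −1.40 (HSC4) and −0.35 (SAS) on the log2 scale, and its log2 fold change was −1.69 ± 0.54 (SE, edgeR adjusted p = 0.421). DESeq2 gave it an adjusted p of 0.042, and leaving out 1 line at a time moved the log2 fold change between −2.50 and −0.84.

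SLC7A5, the leucine carrier LAT1, had 473 (HSC3), 516 (HSC4) and 539 (SAS) in HPLM, against 658 (HSC3), 599 (HSC4) and 725 (SAS) in DMEM. Each HPLM level lay below each DMEM level. The share of all tested genes whose media separate in this way was not counted. SLC7A5 averaged 509 ± 33.2 CPM in HPLM and 661 ± 63.1 CPM in DMEM (SD, n = 3 lines each), or −0.37 ± 0.09 as a log2 fold change (SE, edgeR adjusted p = 0.368), with a DESeq2 adjusted p of 0.028. Its pseudogenes SLC7A5P1 and SLC7A5P2 stood at 3.24 CPM or less. SLC3A2, the heavy chain that LAT1 and xCT share, had 378 (HSC3), 427 (HSC4) and 315 (SAS) in HPLM, against 613 (HSC3), 450.5 (HSC4) and 374 (SAS) in DMEM. The media overlapped for SLC3A2, whose log2 fold change was −0.34 ± 0.13 (SE, edgeR adjusted p = 0.48).

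SLC38A2, the sodium-coupled carrier SNAT2, had 195 (HSC3), 118 (HSC4) and 76.5 (SAS) in HPLM, against 262 (HSC3), 121 (HSC4) and 92.7 (SAS) in DMEM. SLC7A1, the cationic amino acid carrier CAT1, had 42.4 (HSC3), 49.8 (HSC4) and 73.1 (SAS) in HPLM, against 50.7 (HSC3), 43.05 (HSC4) and 71.6 (SAS) in DMEM. SLC1A5, the glutamine carrier ASCT2, had 156 (HSC3), 120.3 (HSC4) and 119 (SAS) in HPLM, against 263 (HSC3), 103 (HSC4) and 108 (SAS) in DMEM. SLC38A2 and SLC1A5 were highest in HSC3 in DMEM, and SLC7A1 was highest in SAS in both media. SLC1A4, a carrier of neutral amino acids, had 1.54 (HSC3), 13.5 (HSC4) and 3.08 (SAS) in HPLM, against 5.29 (HSC3), 12.1 (HSC4) and 1.94 (SAS) in DMEM. SLC6A9, the glycine transporter GLYT1, had 5.28 (HSC3), 12.5 (HSC4) and 3.82 (SAS) in HPLM, against 26.02 (HSC3), 15.6 (HSC4) and 3.39 (SAS) in DMEM. For SLC6A9 the HSC3 level in DMEM stood above the other 5 libraries, while in HPLM HSC3 was below HSC4.

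Of the 2 secreted proteins, GDF15, a stress-induced cytokine that acts on appetite, had 5.39 (HSC3), 12.5 (HSC4) and 10.98 (SAS) in HPLM, against 9.27 (HSC3), 4.92 (HSC4) and 8.67 (SAS) in DMEM. STC2, a secreted glycoprotein, had 32.1 (HSC3), 80.7 (HSC4) and 101 (SAS) in HPLM, against 32.9 (HSC3), 74.8 (HSC4) and 87.3 (SAS) in DMEM. GDF15 was lower in HPLM in HSC3 and higher in it in the other lines, and STC2 differed by at most 0.21 on the log2 scale between the media of any line.

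The difference between lines was tested directly by asking whether the log2 ratio of 1 line differed from the mean of the other lines, each line in turn, a test added after the values were seen. The 3 tests use the same 6 libraries and leave 1 residual degree of freedom, the disagreement between the other lines, which edgeR combines with the spread over all genes. The line tested has 1 library per medium, so its own spread was not measured and is assumed to be that of the other lines. The test of HSC3 was prompted by the ratios above and is no independent support for them. For HSC3, 35 of the 36 differences were below 0, with a median of −0.88 on the log2 scale. At an unadjusted edgeR p under 0.05, 21 of the 36 genes were lower (3.15% of all genes) and 0 were higher (2.03% of all genes). At an adjusted p under 0.05, edgeR called 0 of 36 genes (0.00% of all genes), limma-voom 0 and DESeq2 3, ASNS, PHGDH and PSAT1, all lower (0.0756% of all genes lower and 0.0453% higher).

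The difference was −3.37 ± 0.30 for ASNS (SE, edgeR adjusted p = 0.177), −2.08 ± 0.20 for PHGDH (adjusted p = 0.227) and −1.95 ± 0.22 for PSAT1 (adjusted p = 0.23), each on the log2 scale. TRIB3 had −1.39 ± 0.23 and DDIT3 −1.21 ± 0.25, with adjusted p of 0.513 and 0.64. ATF4 had −0.76 ± 0.23 (adjusted p = 0.885), and SLC7A5 −0.15 ± 0.20 (adjusted p = 1). Since HSC3 gave 1 library per medium, a response of the line and a fault of 1 library cannot be told apart. HSC3 in DMEM was the highest of the 6 libraries for 21 of the 36 genes (17.0% of all genes), and HSC3 in HPLM the lowest for 12 (16.2% of all genes).

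For HSC4, 0 genes were lower (2.62% of all genes) and 2 were higher (2.43% of all genes) than the mean of the other lines at an unadjusted p under 0.05. These were DDIT4, with 1.496 ± 0.187 (SE, edgeR adjusted p = 0.607, DESeq2 adjusted p = 0.00758), and GDF15, with 1.55 ± 0.55 (edgeR adjusted p = 0.962). For SAS, 0 were lower (1.84% of all genes) and 4 were higher (2.84% of all genes), namely CHAC1, GPT2, NUPR1 and SLC7A11. None passed the adjusted edgeR test in HSC4 (0.00% of all genes) or in SAS (0.00% of all genes). Of the list, DESeq2 called DDIT4 alone in HSC4, as higher (0.0831% of all genes higher and 0.0756% lower), and 0 genes in SAS (0.0227% of all genes lower and 0.0151% higher), and limma-voom called 0 in either.

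**Figure D3:**
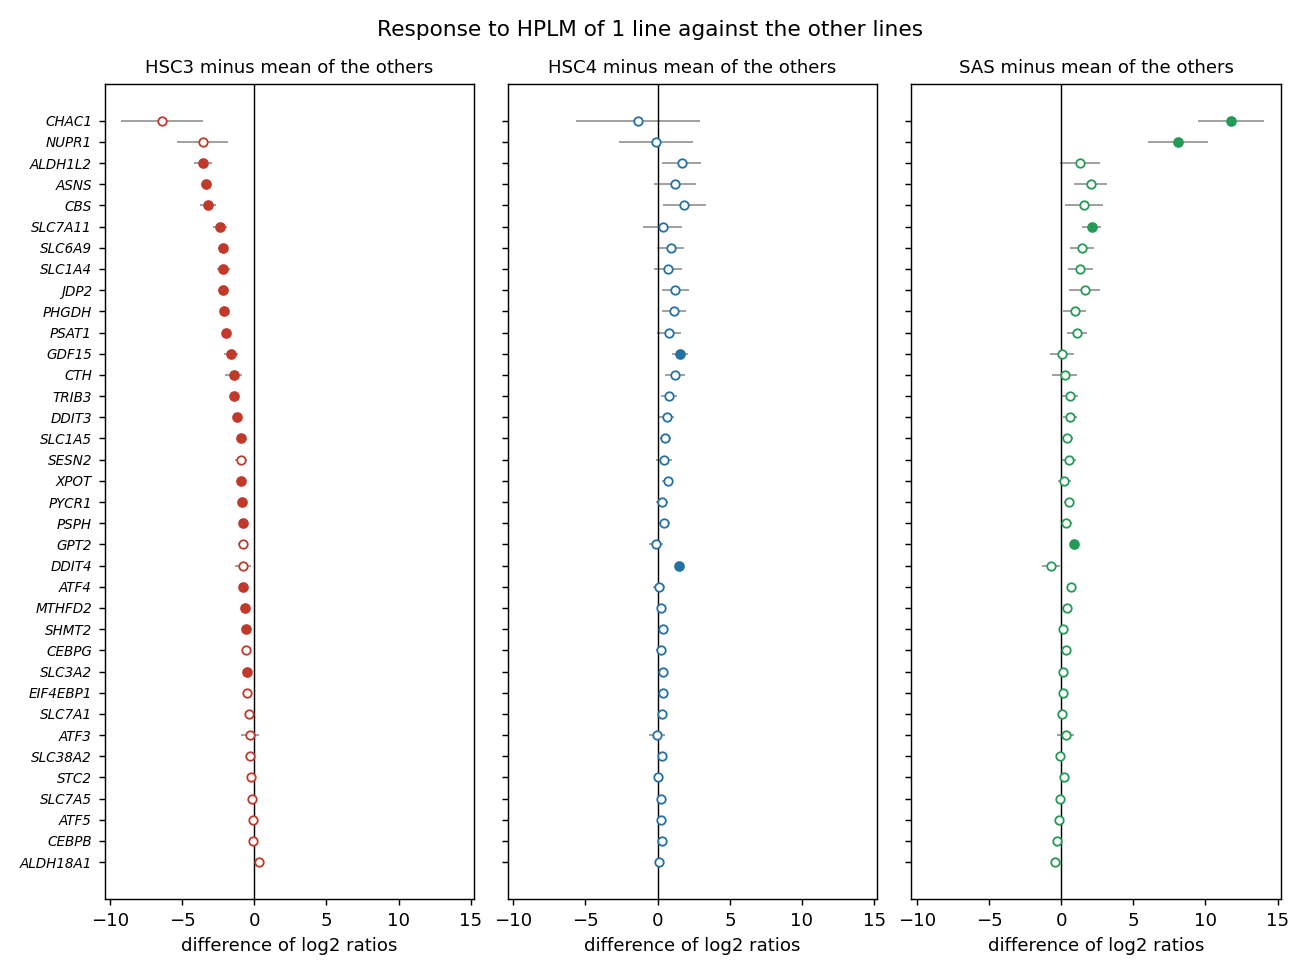
Log2 ratio, HPLM over DMEM, of HSC3 (left), HSC4 (middle) and SAS (right) minus the mean of the other lines, for each gene, with its SE. Filled points have an unadjusted p under 0.05, which holds for 21 genes in HSC3, 2 in HSC4 and 4 in SAS; no point passed the adjusted edgeR test.

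Lines also differed in level over both media, by the edgeR test in the fit with line and medium as terms. HSC3 against HSC4 gave 10 genes higher (18.6% of all genes) and 5 lower (18.8% of all genes) at an adjusted p under 0.05. HSC3 against SAS gave 7 higher (20.6% of all genes) and 5 lower (18.8% of all genes), and HSC4 against SAS gave 7 higher (21.3% of all genes) and 4 lower (20.0% of all genes). In all, 22 of the 36 genes were called in at least 1 of these comparisons, where 8336 of the 13236 tested genes were, shares near each other. The differences of HSC3 against HSC4 shifted with the HSC3 library left out. SLC7A11 had 2.44 with all libraries, 0.96 without HSC3 in DMEM and 3.31 without HSC3 in HPLM. SLC1A4 had −1.97 with all libraries, −3.22 without HSC3 in DMEM and −1.09 without HSC3 in HPLM. The balance of higher and lower genes therefore leans on single HSC3 libraries. The counts changed when single libraries were left out, and the shares over all genes fell in each of these fits. For HSC3 against HSC4, 6 genes were called without HSC4 in HPLM (20.0% of all genes) and 3 without HSC4 in DMEM (17.8%). For HSC3 against SAS, 20 were called without HSC3 in HPLM (22.8%) and 7 without SAS in DMEM (20.5%). For HSC4 against SAS, 5 were called without HSC4 in HPLM (24.5%), 5 without HSC4 in DMEM (20.3%) and 7 without SAS in DMEM (21.4%).

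STC2 was the gene with the smallest adjusted p in both HSC3 comparisons. It was lower in HSC3 than in HSC4, with a log2 difference of −1.26 ± 0.12 (SE, edgeR adjusted p = 0.00147), and lower than in SAS, with −1.53 ± 0.12 (adjusted p = 0.000775). SLC38A2 was higher in HSC3 than in HSC4 by 0.92 ± 0.13 (adjusted p = 0.0039) and higher than in SAS by 1.43 ± 0.13 (adjusted p = 0.0011). JDP2 was higher in HSC3 than in SAS by 4.25 ± 0.64 (adjusted p = 0.00442), and DDIT4 by 2.25 ± 0.38 (adjusted p = 0.00662). These calls held in all 14 other settings, as did those of CEBPB and MTHFD2 below.

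MTHFD2 was higher in SAS than in both other lines. Its log2 difference was −1.10 ± 0.18 for HSC3 against SAS (SE, edgeR adjusted p = 0.00635) and −1.26 ± 0.18 for HSC4 against SAS (adjusted p = 0.00421). CEBPB was lower in SAS, at 0.91 ± 0.13 for HSC3 against SAS (adjusted p = 0.00405) and 0.95 ± 0.13 for HSC4 against SAS (adjusted p = 0.00368). PYCR1 was lower in HSC3 than in HSC4, with −1.26 ± 0.23 (adjusted p = 0.00926), and SHMT2 was higher in HSC3 by 1.07 ± 0.17 (adjusted p = 0.0058), each called in 13 of 14 other settings.

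The remaining calls of HSC3 against HSC4 were DDIT3, DDIT4, JDP2, PSPH, SESN2, SLC1A5, SLC7A11 and XPOT, all higher in HSC3, and ATF3, ATF5 and SLC1A4, all lower. The log2 differences of those higher in HSC3 lay between 0.885 (SLC1A5) and 2.44 (SLC7A11). Without HSC3 in DMEM they lay between 0.405 (SLC1A5) and 0.959 (SLC7A11), each smaller than before, so that 1 library weighs heavily on them. Against SAS, SLC1A5, SLC6A9 and XPOT were also higher in HSC3, and ALDH18A1, GPT2 and SLC7A1 lower. Between HSC4 and SAS, ATF5, JDP2, PYCR1, SLC1A4, SLC38A2 and SLC6A9 were also higher in HSC4, and EIF4EBP1, SHMT2 and SLC7A1 lower. DESeq2 did not call ATF3 (adjusted p = 0.0724), DDIT4 (0.0948) or SESN2 (0.0536) for HSC3 against HSC4, and limma-voom did not call JDP2 (0.0661) for HSC4 against SAS. DESeq2 alone called ATF4, with adjusted p of 0.0164 for HSC3 against HSC4 and 0.0155 for HSC4 against SAS, where edgeR gave 0.0751 and 0.0733. It also called CBS in both of these, PSPH, SHMT2 and SLC3A2 for HSC3 against SAS, and SLC7A11 for HSC4 against SAS, and limma-voom added ATF3 and SLC3A2 for HSC3 against SAS. ASNS, PHGDH and PSAT1 passed in none of the 3 comparisons by edgeR, DESeq2 or limma-voom, and for ASNS, PHGDH and PSAT1 the HSC3 libraries lay on both sides of the other lines.

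Other genes around the pathway were described from lists chosen with earlier results known. Of 22 other reported ATF4 targets, 17 were tested and 16 of these were lower in HPLM in HSC3 (49.5% of all genes). The median log2 ratio of the 17 was −0.65 in HSC3, against 0.04 in HSC4 and 0.17 in SAS. PCK2, the mitochondrial enzyme that makes phosphoenolpyruvate, chosen after its values were seen, had 10.2 (HSC3), 23.9 (HSC4) and 19.7 (SAS) in HPLM, against 38.8 (HSC3), 25.4 (HSC4) and 16.9 (SAS) in DMEM. The 5 aminoacyl-tRNA synthetases of that list, AARS1, CARS1, GARS1, SARS1 and WARS1, also picked after their values were seen, had log2 ratios between −0.73 and −0.45 in HSC3. In HSC4 they lay between −0.37 (WARS1) and 0.33 (CARS1), with 4 of the 5 above 0, and in SAS between −0.09 (WARS1) and 0.48 (AARS1), with 3 of the 5 above 0. By the rule, VEGFA, an angiogenic factor, had 41.6 (HSC3), 68.6 (HSC4) and 33.9 (SAS) in HPLM, against 66.3 (HSC3), 76.4 (HSC4) and 50.9 (SAS) in DMEM. WARS1, the tryptophanyl-tRNA synthetase, had 145 (HSC3), 119 (HSC4) and 180.1 (SAS) in HPLM, against 228 (HSC3), 154 (HSC4) and 192 (SAS) in DMEM. Both were lower in HPLM in all 3 lines, with edgeR adjusted p of 0.381 and 0.428.

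The 14 ER stress genes of the ATF6 and XBP1 branches, which respond to unfolded proteins in the ER, had medians of 0.20 (HSC3), 0.19 (HSC4) and 0.05 (SAS). Of these, 2 were lower in HPLM in HSC3 (49.5% of all genes), and 6 were higher in HPLM in all 3 lines (16.9% of all genes). SDF2L1, a chaperone partner in the ER, had 129 (HSC3), 59.7 (HSC4) and 53.5 (SAS) in HPLM, against 97.01 (HSC3), 47.7 (HSC4) and 47.2 (SAS) in DMEM. MANF, a secreted ER stress protein, had 56.02 (HSC3), 49.3 (HSC4) and 92.3 (SAS) in HPLM, against 42.98 (HSC3), 41.6 (HSC4) and 84.4 (SAS) in DMEM. Both were higher in HPLM in each line by 0.41 or less on the log2 scale, with edgeR adjusted p of 0.406 and 0.47.

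In HSC3, the lists of genes that act upstream of ATF4 and of mTORC1 genes had medians nearer 0 than that of the 36 genes, −0.71. The list of eIF2 alpha kinases, phosphatases and eIF2B subunits, all 14 tested, had medians of −0.06 (HSC3), −0.04 (HSC4) and 0.03 (SAS). GCN1, the activator of the kinase GCN2, had 62.9 (HSC3), 42.9 (HSC4) and 80.7 (SAS) in HPLM, against 71.2 (HSC3), 53.03 (HSC4) and 97.7 (SAS) in DMEM, and EIF2AK2, the kinase PKR, had 25.4 (HSC3), 52.7 (HSC4) and 44.8 (SAS) in HPLM, against 27.9 (HSC3), 74.7 (HSC4) and 49.2 (SAS) in DMEM. The 16 tested genes of mTORC1 and its amino acid sensors had medians of −0.02 (HSC3), −0.16 (HSC4) and −0.15 (SAS). RRAGC, a Rag GTPase, had 30.3 (HSC3), 26.5 (HSC4) and 28.2 (SAS) in HPLM, against 39.2 (HSC3), 30.3 (HSC4) and 34.6 (SAS) in DMEM, and FLCN, folliculin, had 22.1 (HSC3), 15.3 (HSC4) and 11.99 (SAS) in HPLM, against 26.02 (HSC3), 17.96 (HSC4) and 21.5 (SAS) in DMEM. These 4 genes were lower in HPLM in each line, with edgeR adjusted p between 0.428 and 0.517.

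**Figure D4:**
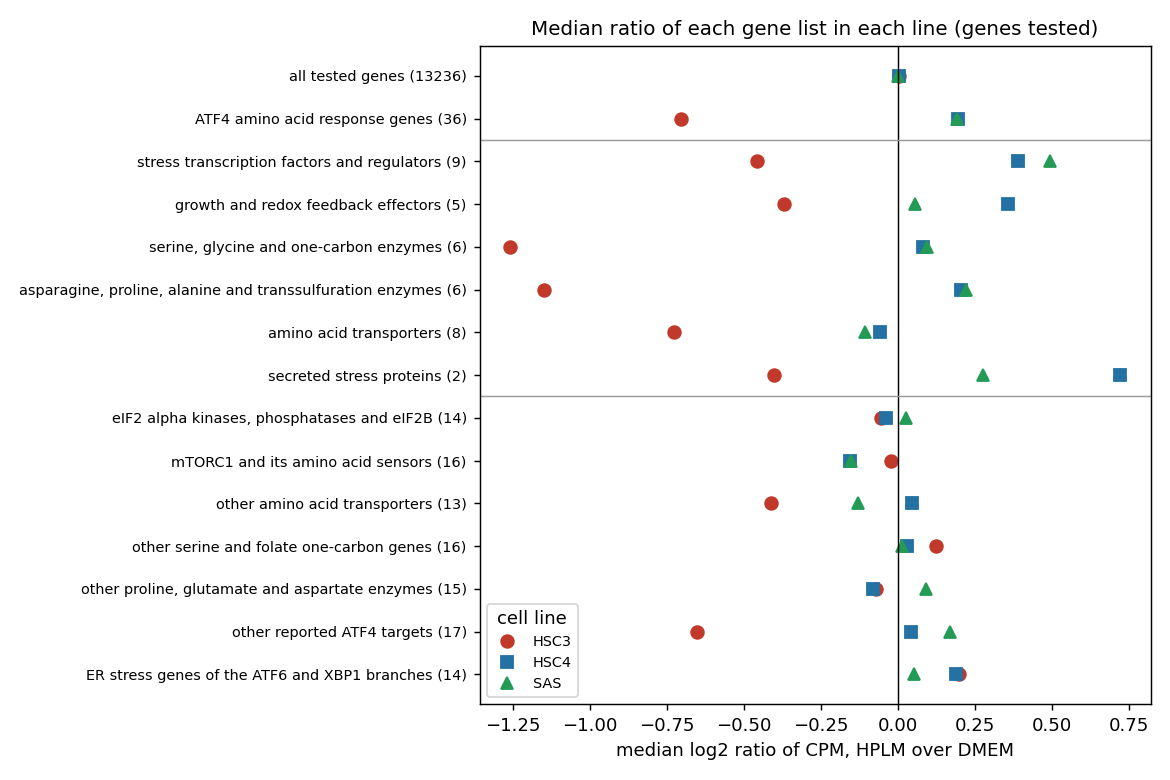
Median log2 ratio of CPM, HPLM over DMEM, of each list in HSC3 (circles), HSC4 (squares) and SAS (triangles), with the number of tested genes in brackets. The 36 genes (−0.71) and the other reported ATF4 targets (−0.65) are low in HSC3, while the ER stress list is at 0.20 there.

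Of 16 other amino acid transporters, 13 were tested, with medians of −0.41 (HSC3), 0.04 (HSC4) and −0.13 (SAS). SLC7A8, the carrier LAT2, had 4.77 (HSC3), 1.68 (HSC4) and 1.54 (SAS) in HPLM, against 28.9 (HSC3), 1.96 (HSC4) and 2.96 (SAS) in DMEM. SLC43A2, the carrier LAT4, had 8.77 (HSC3), 9.35 (HSC4) and 3.92 (SAS) in HPLM, against 1.78 (HSC3), 4.92 (HSC4) and 2.75 (SAS) in DMEM. SLC7A8 was lower and SLC43A2 higher in HPLM in each line, with log2 fold changes of −1.44 ± 0.47 and 1.23 ± 0.36 (SE, edgeR adjusted p = 0.423 and 0.406).

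The other serine and folate one-carbon genes, 16 tested, had medians of 0.12 (HSC3), 0.03 (HSC4) and 0.01 (SAS). MTHFD2L, a paralog of MTHFD2, had 35.6 (HSC3), 7.78 (HSC4) and 8.38 (SAS) in HPLM, against 24.7 (HSC3), 6.02 (HSC4) and 8.02 (SAS) in DMEM, and AHCY, which breaks down S-adenosylhomocysteine, had 288 (HSC3), 359 (HSC4) and 302 (SAS) in HPLM, against 227 (HSC3), 321 (HSC4) and 287 (SAS) in DMEM. The other proline, glutamate and aspartate enzymes, 15 tested, had medians of −0.07 (HSC3), −0.08 (HSC4) and 0.09 (SAS). BCAT2, a branched-chain aminotransferase, had 65.5 (HSC3), 35.2 (HSC4) and 36.7 (SAS) in HPLM, against 52.9 (HSC3), 27.9 (HSC4) and 34.7 (SAS) in DMEM, and ASS1, argininosuccinate synthase, had 147 (HSC3), 56.96 (HSC4) and 47.1 (SAS) in HPLM, against 226 (HSC3), 52.98 (HSC4) and 69.6 (SAS) in DMEM. No gene of these 7 lists passed the edgeR test between the media at an adjusted p under 0.05, and DESeq2 called 0 of them. PCK2, BCAT1 and PPP1R15A each stand in 2 of the lists.

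The tested genes whose log2 CPM followed that of ASNS most closely over the 6 libraries were RPL17-C18orf32 (Pearson's r = 0.985), PHGDH (0.965), BCL2 (0.964), RPS28P5 (0.962) and DPY19L2P3 (0.962). RPL17-C18orf32 is a read-through of RPL17 and RPS28P5 and DPY19L2P3 are pseudogenes, which may share reads with their parents, and BCL2 stood at 2.23 CPM or less. PSAT1 was ninth of all genes (0.946) and ALDH1L2 eighteenth (0.922). These correlations rest on 6 libraries that share 3 lines and are given as a description, and ATF4 mRNA had 0.378.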

How the data were processed

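Polyadenylated RNA of 3 lines in 2 media was measured in 6 strand-specific libraries, per the labels' protocols. Per the submitters' processing notes, the tools were FastQC and kallisto and the build was hg38. No source used here gives versions, annotation or use of strand, so overlapping antisense genes may share reads. The authors deposited expected counts per transcript (161149 rows), scaled TPM by the table's name, which are abundances brought to library size and not reads, so no counting interval is given. DMEM columns carry the name of the line and an ending of unknown meaning, and 0 columns were left unused. Each of 159837 transcripts was counted once, summed by symbol and rounded. Transcripts without a symbol (6878, at most 0.479% of a library) were left out.

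Genes kept by filterByExpr (minimum count 10, minimum total 15) were tested with edgeR 4.0.16 (R 4.3.3) with TMM scaling, line and medium as terms, 2 residual and 4.00 prior degrees of freedom, and Benjamini-Hochberg adjustment over all 13236 genes. SEs come from the log2 fold change and the F statistic. Ratios per line used a prior count of 2. DESeq2 1.42.0 and limma-voom (limma 3.58.1), other scalings, no filter, repeated rows and left-out libraries were alternatives. Both fits were tested on simulated data. The line pairs the libraries: the 2 libraries of a line deviated together from their medium means (r = 0.779 for HSC3, 0.792 for HSC4, 0.805 for SAS). Between lines, r was −0.335 or less. Deviations from a medium mean cancel over the lines, so these negative values largely follow from those within lines.

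Members and lists were chosen with earlier results of these data known. All 36 members are named; of each other list, the rule took the 2 genes of lowest p at a mean CPM of at least 1. From the marker lists it took KRT17, ITGB4, CD68, ITGAM and COL1A1, used here only in sums. CASTOR2 and SAMTOR were not analysed here. Promoter sequences are RefSeq's (GRCh38.p14).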

Additional observations from a re-analysis of the deposited data

Results flagged for a closer look

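The median log2 ratio of the list was opposite in sign between HSC3 and the other lines, with each line giving 1 library per medium. The summed level was lower in HPLM in SAS as well as in HSC3 (3039 against 3077 CPM in SAS). Without SLC7A11, SLC7A5 and SLC3A2, the other 33 genes summed higher in HPLM in SAS, to 2178 against 1967 CPM in DMEM. In HSC3 they remained lower, at 1833 CPM in HPLM against 2901 CPM in DMEM. Past 2-fold in the line that stood apart, 9 genes of the list also had ratios of opposite direction. The share of all tested genes that met this rule was not counted. Some of the 9 were near the floor: CHAC1 and NUPR1 were listed at 0 in SAS in DMEM, and ALDH1L2 had 0.462 CPM in HSC3 in HPLM. The median log2 ratio, HPLM over DMEM, was −0.71 in HSC3 (−0.706 to 3 digits), where HSC4 had 0.193 and SAS 0.190. In the test of each line against the other lines, the adjusted edgeR p was above 0.05 for every gene of the list, while DESeq2 called ASNS, PHGDH and PSAT1 in HSC3 and DDIT4 in HSC4, and the difference of the medians was not tested.

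Ratios of HSC3 that pointed against those of HSC4 and SAS were −2.99 for ALDH1L2, −2.90 for ASNS, −2.47 for CBS, −1.73 for PSAT1, −1.71 for SLC1A4, −1.55 for JDP2 and −1.12 for NUPR1. DDIT4 stood apart in HSC4, with 1.31, where HSC3 and SAS were below 0. CHAC1 stood apart in SAS, with 5.49, a value that depends on the prior count because SAS in DMEM was listed at 0.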

How the results depend on the processing

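Between the media, the count of called genes was 0 under RLE, upper-quartile and no scaling, without the filter, with limma-voom, with repeated rows counted each time, without any 1 line and without the replicate block, and 2 with DESeq2. The median log2 fold change was −0.127 without the block and between −0.293 and 0.188 on leaving out 1 line, the positive value being without HSC3. Of the genes named whatever their values, 4 turned direction. ATF4 came to −0.00267 with no scaling factor and to between −0.180 and 0.299 on leaving out 1 line. TRIB3 came to −0.0332 with no scaling factor, −0.0135 without the block and between −0.259 and 0.475 on leaving out 1 line (−0.193 without SAS). CHAC1 came to 0.579 without the block and between −2.32 and 2.32 on leaving out 1 line (0.654 without HSC4), and ASNS to between −1.32 and 0.454. Leaving out 1 library moved the called genes between 3 and 19 for HSC3 against HSC4 (6 without HSC4 in HPLM), 7 and 20 for HSC3 against SAS, and 5 and 16 for HSC4 against SAS. For the response of 1 line against the others, DESeq2 called 3 genes in HSC3 and 1 in HSC4 where edgeR called 0. The causes were not tested. In the line comparisons, no called gene changed direction under the alternatives, and of their values 162 kept and 48 lost the call for HSC3 against HSC4, 144 and 24 for HSC3 against SAS, and 121 and 33 for HSC4 against SAS. Dropping the line as a block changed no call between the media. Dropping the term for the medium gave 12 genes of the list for HSC3 against HSC4, where 4539 of all 13236 tested genes were called (4952 with the term). ATF3, DDIT4 and SLC7A11 were lost (edgeR adjusted p = 0.183, 0.0509 and 0.064). The same change gave 12 for HSC3 against SAS, and 8 for HSC4 against SAS, without SHMT2, SLC38A2 and SLC6A9 (0.0758, 0.061 and 0.0544). A prior count of 0.5 moved each of the 108 ratios by less than the SD of that gene's own ratios over the lines. That bound is loose for CHAC1 (SD 4.57) and NUPR1 (SD 2.51), so it does not show that their ratios are stable. With 1 library per line and medium, no response within a line has a replicate check, and CHAC1 and NUPR1, below 1 CPM in 4 and 3 of the 6 libraries, rest on low counts.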
